A study of Homo sapiens with 30 samples.

Results

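Trimethylation of lysine 4 of histone H3 (H3K4me3) and RNA polymerase II (Pol II) were compared at protein-coding promoters of parental MDA-MB-231 cells. The ChIP-Seq lists of 4 libraries were used, 2 for each target, out of 18 peak lists and 30 samples in the series. The members were the protein-coding genes themselves. Each of 20098 genes on the autosomes and chromosome X was placed in 1 of 4 classes by whether a region of H3K4me3 and a region of Pol II, each seen in both replicates, reached within 1000 bp of an annotated start site. There were 1432 genes with the mark and no Pol II region, 11415 with both, 215 with Pol II and no mark, and 7036 with neither. These were 7.13%, 56.8%, 1.07% and 35% of the genes.

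MDA-MB-231 is an established human cell line from a triple-negative breast cancer, which lacks estrogen receptor, progesterone receptor and HER2 amplification. The study mapped SAP30, which belongs to the SIN3 corepressor, the scaffolds SIN3A and SIN3B of that complex, the acetylated histone mark H3K9Ac, H3K4me3 and Pol II. The parental cells carry no engineered change. The SAP30-KO1 cells, used below only as further readouts, were made with CRISPR/Cas9 and, per the study's methods, are a mixture of single-cell clones. Nothing in the labels says that the 2 libraries of a group came from separate cultures, so a p-value below measures only the spread between these libraries, which may be technical.

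H3K4me3 is placed on nucleosomes next to start sites by SET1 and MLL methyltransferases, which are drawn to unmethylated CpG-rich DNA, and it is found at nearly all promoters that are being transcribed. Pol II initiates at the start site and often pauses a short way downstream before it elongates. At CpG island promoters of silent developmental genes the mark can be present together with Polycomb marks while productive transcription is absent.

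Promoter sequences of 8 genes are shown first, because the classes differed in what lies just upstream of the start site. Each is the 100 bases before the canonical start, read 5′ to 3′ on the gene's strand from the GRCh37 reference genome, and capitals mark 3 short motifs on either strand. These are TATAAA, the core of the TATA box, then GGGCGG, part of the site of Sp family factors, and lastly CCAAT, the core of the site of NF-Y. The first 3 had H3K4me3 without Pol II. They are ESR1 at chr6:152128717-152128816 (plus strand), CLDN1 at chr3:190040236-190040335 (minus strand) and EIF4E3 at chr3:71774554-71774653 (minus strand).
ESR1: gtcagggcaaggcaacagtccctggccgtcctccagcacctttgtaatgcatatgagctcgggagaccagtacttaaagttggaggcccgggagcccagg
CLDN1: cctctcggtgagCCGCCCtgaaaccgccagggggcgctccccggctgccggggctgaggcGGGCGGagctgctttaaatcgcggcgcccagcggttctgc
EIF4E3: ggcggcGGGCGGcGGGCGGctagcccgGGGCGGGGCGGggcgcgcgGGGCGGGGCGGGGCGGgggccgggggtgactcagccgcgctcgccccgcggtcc
HSPA8 at chr11:122932845-122932944 and PRDX1 at chr1:45987557-45987656, both on the minus strand, had both targets with ranks near the top of all 4 lists.
HSPA8: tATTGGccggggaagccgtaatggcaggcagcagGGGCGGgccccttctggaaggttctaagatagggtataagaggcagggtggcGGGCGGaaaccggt
PRDX1: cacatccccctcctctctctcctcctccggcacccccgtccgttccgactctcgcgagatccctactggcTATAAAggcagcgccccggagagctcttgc
CCN1 at chr1:86046344-86046443 (plus strand), CDKN1A at chr6:36646391-36646490 (plus strand) and EFNB2 at chr13:107188011-107188110 (minus strand) had Pol II without H3K4me3 in the window.
CCN1: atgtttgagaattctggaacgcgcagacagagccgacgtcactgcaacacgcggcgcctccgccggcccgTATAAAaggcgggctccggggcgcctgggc
CDKN1A: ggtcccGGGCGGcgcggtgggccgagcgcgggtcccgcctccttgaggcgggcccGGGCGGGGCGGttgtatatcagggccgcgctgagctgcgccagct
EFNB2: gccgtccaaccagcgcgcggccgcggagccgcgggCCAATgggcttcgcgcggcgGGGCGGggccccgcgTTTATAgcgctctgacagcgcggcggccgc

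In these stretches TATAAA began 30 bases before the start in both PRDX1 and CCN1, at position -30, and EFNB2 held it on the opposite strand. Over the classes, TATAAA was present within 100 bases upstream of the canonical start in 4.47% of the genes with the mark and no Pol II, 2.19% of those with both, 6.98% of those with Pol II and no mark and 11.7% of those with neither, against 5.73% of all 20098 promoters. The Pol II-only value rests on 15 genes and lies near that of all promoters. In the 2 classes with Pol II, TATAAA was far rarer than in the sequences shown, which are not typical in this. GGGCGG was found in 55.4%, 57.9%, 46.5% and 22.3%, against 45.1% of all promoters. Matches to it may overlap each other, as they do in EIF4E3. CCAAT was found in 16.6%, 22.3%, 21.9% and 18.6%, against 20.6% overall. The 2 classes with H3K4me3 were thus closest to each other in GGGCGG and both lay far from the genes with neither target.

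Peak lists were available rather than reads. Each line gave a summit, the single base of highest enrichment within a peak, with the −log10 of its q-value as a score. Depth is unknown and a mark on fewer cells cannot be told apart from less of it per cell. For that reason a score was used only to rank summits within their own list, from 0 (best) to 100 (worst). The H3K4me3 lists held 24079 and 22393 summits and the Pol II lists 20736 and 23002. Between 83.6% and 92.8% of the summits of a list lay within 1000 bp of one in its replicate, with the lowest share in Pol II replicate 2, and at most 1.24% fell on the identical base. Short lists of cell type markers were also looked up, beside the 56.8% of all genes with both targets and 35% with neither. Of 10 mesenchymal and basal-like markers 7 had both, among them VIM, AXL, CD44 and EGFR, and 3 (SPARC, TWIST1 and CDH2) had neither. That is near the share of all genes and does not by itself identify the cell type. Of 5 blood markers 4 had neither, the exception being CD14 with the mark alone. Of 5 liver and neuron markers 4 had neither, the exception being SYP with both. Luminal markers are given below.

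Whether the 2 targets cover the same promoters was compared first by library. Protein-coding genes with a summit within 1000 bp of a start site numbered 12943 and 12948 for H3K4me3 and 11732 and 11940 for Pol II. The 2 groups did not overlap, and the means of 12946 ± 3.54 and 11836 ± 147 (SD, n = 2 each) differed by 1109.5 genes. The two-sided exact permutation p was 0.33, the smallest that 2 libraries against 2 can give, and 0.50 after Benjamini-Hochberg adjustment over 3 such tests, so no difference here can pass a threshold of 0.05. Of all summits, 67.7% and 67.1% of H3K4me3 and 71.0% and 64.9% of Pol II lay at a start site of a protein-coding or lncRNA gene. The Pol II libraries lay on both sides of the H3K4me3 libraries, and the difference of -0.552 percentage points was within their spread (exact permutation p = 1.00, adjusted 1.00).

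After merging summits within 1000 bp, 18303 H3K4me3 and 15097 Pol II regions were seen in both replicates. Of the 11668 Pol II regions at a start site, 96.3% overlapped an H3K4me3 region, whereas 84.3% of 13422 H3K4me3 regions at a start site overlapped Pol II. Away from start sites the shares were 51.1% of 3429 Pol II regions and 35.6% of 4881 H3K4me3 regions. Counted by gene, 12847 genes (63.9%) had the mark and 11630 (57.9%) had Pol II. Among genes with the mark 11.1% lacked a Pol II region of both replicates. Among genes with Pol II 1.85% lacked such a region of the mark. The genes with both used 10793 distinct H3K4me3 regions, since neighbouring genes can share a promoter.

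At promoters with both targets the summits did not coincide. Among genes with 1 cluster of start sites, the best-ranked H3K4me3 summit lay a median of 200 and 207 bp downstream of the start (8170 and 8161 genes in replicates 1 and 2), while that of Pol II lay 34 and 35 bp downstream (8186 and 8183 genes). Over genes of any class with 1 cluster of start sites and a summit of the library in the window (8429 to 9162 genes), the medians were 195 and 201 bp against 34 and 35 bp, a difference of 163.5 bp that was far larger than the spread between replicates, with an exact permutation p of 0.33 (adjusted 0.50, n = 2 each), again the smallest possible. In the 50 bp just upstream of the start, which active promoters usually keep free of nucleosomes, 0.122% and 0.0858% of the genes had their H3K4me3 summit, compared with 6.62% and 6.54% for Pol II. Pol II summits more than 200 bp upstream were seen at 15.9% and 16.2% of genes, and H3K4me3 summits at 12.3% and 11.98%. The median separation of the 2 summits of a gene was 237 bp in both replicates.

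**Figure D1:**
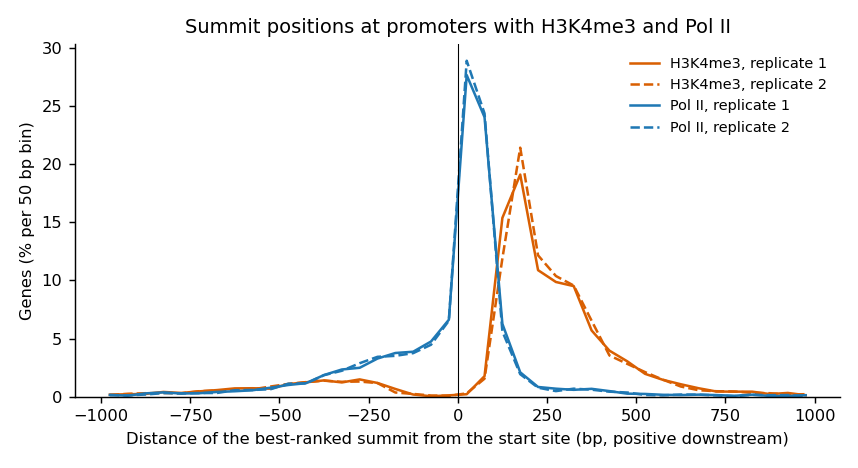
Position of the best-ranked summit (x axis, bp from the start site, positive downstream) at genes with both targets, as percent of genes per 50 bp bin (y axis), with 1 line per library. Pol II peaks in the bin centred 25 bp downstream, with 27.6% and 28.9% of genes, and H3K4me3 in the bin centred 175 bp downstream, with 19.1% and 21.4%, while the replicates nearly superimpose.

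The genes with the mark and no Pol II were concentrated at the weak end of the H3K4me3 ranks. When the genes with H3K4me3 were split into deciles by their mean rank, 0.782% of the best decile lacked Pol II, and the share stayed at or below 5.24% through decile 8. It was 25.2% in decile 9 and 73.9% in the last. The median H3K4me3 rank was 59.4 and 59.7 in the 2 libraries for the genes without Pol II and 21.4 and 23.1 for the genes with both. The quartiles, 50.3 to 69.5 and 10.3 to 33.6 in replicate 1, did not overlap. In the reverse direction there was little gradient. The share of Pol II genes without the mark ranged from 0.863% to 1.98% over the first 9 deciles of Pol II rank and was 4.58% in the last. Across the genes with both, the ranks of the 2 targets had Spearman coefficients of 0.410 (11383 genes) and 0.379 (11384 genes) in replicates 1 and 2, a description across genes that share their libraries. Between replicates of 1 target the coefficient was 0.707 for H3K4me3 and 0.865 for Pol II.

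**Figure D2:**
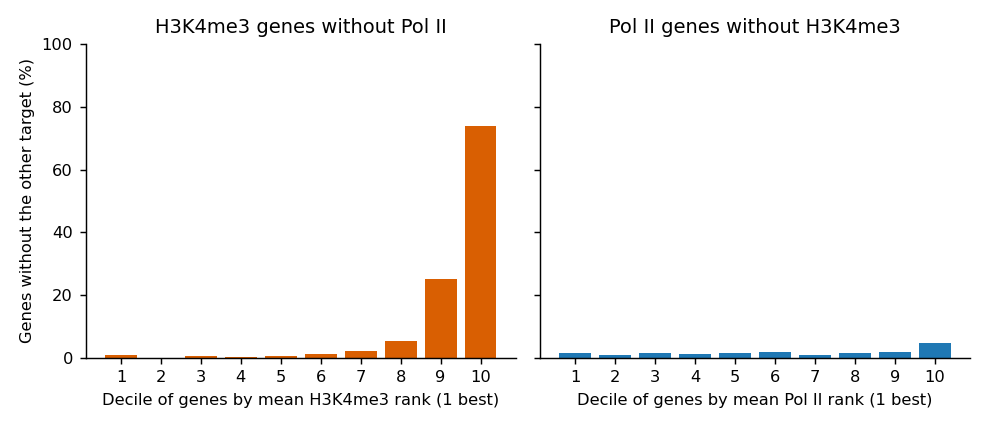
Share of genes without the other target (y axis, percent) in deciles of genes ordered by the mean rank of H3K4me3 (left) or Pol II (right), with the best decile at 1 (x axis). The left bars reach 25.2% and 73.9% in the last 2 deciles, and no bar on the right exceeds 4.58%.

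How firmly each class was set apart was examined at its edges. Of the 1432 genes with the mark alone, 1036 had no Pol II summit in the window in either library, 392 had one in 1 of 2 libraries and 4 had one in both that did not form a shared region. The Pol II libraries were unequal here, with a summit at 7.26% of these genes in replicate 1 and 20.7% in replicate 2. No Pol II summit was found within 3000 bp in either library at 979 genes (68.4%), and the median distance to the nearest one among the 1036 was 50707 bp. The genes with Pol II alone were different. Of these 215, 134 had no H3K4me3 summit in the window in either library, 45 had one in 1 and 36 in both without a shared region. Such summits were not weak. Their median rank was 28.9 in replicate 1 (72 genes) and 24.9 in replicate 2 (45 genes), near the 21.4 and 23.1 of genes with both. For these genes the class does not mean that the mark was absent. Among the 134 the nearest H3K4me3 summit was a median of 1481.5 bp from a start site, and 92 had one within 3000 bp. In the last 100 bp inside the window the nearest H3K4me3 summit was found at 54 and 52 genes with Pol II in replicates 1 and 2, and in the first 100 bp outside it at 18 and 32. For Pol II at genes with the mark these counts were 12 and 27 inside and 17 and 17 outside.

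The 10 genes with the best H3K4me3 rank and no Pol II summit in the window were edge cases of this kind. They included LMNB1, which encodes lamin B1 of the nuclear envelope, EP300, a histone acetyltransferase, TBCC, a tubulin folding cofactor, KLF12, a zinc finger repressor, JADE2 and STX10. Their H3K4me3 ranks ran from 1.76 to 29.5, and in every case a Pol II summit lay 1070 to 2710 bp from the start. At LMNB1 (chr5:126112315-126172712) the H3K4me3 ranks were 3.59 and 15.8, with summits 342 and 401 bp downstream, and the nearest Pol II summits were 1120 and 1070 bp away. In the SAP30-KO1 Pol II lists 9 of the 10 had a summit within the window in both libraries. A region of both libraries was found there at 7.19% of all mark-only genes.

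A second set of 10, the best-ranked genes with no Pol II summit within 3000 bp, was chosen after the values had been seen. Their H3K4me3 ranks ran from 21.1 to 44.2 and their nearest Pol II summits were 6314 to 258377 bp away. EIF4E3, a member of the eIF4E cap-binding family, had H3K4me3 ranks of 28.9 and 21.3 with summits 195 and 206 bp downstream, while Pol II was 141010 and 143221 bp away. CLDN1, the tight junction protein claudin-1, had ranks of 33.2 and 33.9, with Pol II at 191414 and 64056 bp. The study counts CLDN1 among the genes that SAP30 coactivates, and by RT-qPCR its mRNA in these cells fell with SAP30 knockout. The lack of a called Pol II summit therefore does not show that CLDN1 was silent. By ChIP-qPCR the study also found SAP30, SIN3A, SIN3B and MLL1 at CLDN1. By ChIP-Seq it reported less H3K4me3 over its coactivated genes in SAP30-KO1 cells, a loss of signal that the presence of a called summit cannot show. HSPA6, a stress-inducible HSP70 protein and one of the study's corepressed genes, had ranks of 38.8 and 31.2, with Pol II at 6314 and 6394 bp. CFAP54 and CFAP206, which belong to cilia and flagella, and VPS37D of the ESCRT-I complex were also in this set. All 10 kept H3K4me3 in both SAP30-KO1 libraries, 8 had SAP30 and 8 had H3K9Ac in both parental libraries, and none had a Pol II summit in both SAP30-KO1 libraries. As regions of both replicates these were found at 82.9%, 60.6%, 56.5% and 7.19% of all mark-only genes. In decile 7 of H3K4me3 rank, SAP30 was at 91.1% and H3K9Ac at 94.6% of the mark-only genes, on average over libraries. For genes of such ranks 8 of 10 is therefore not high.

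Luminal genes were checked as markers that a basal-like line should lack. Of 10 luminal epithelial genes, 5 had the mark without Pol II, 4 had both and GATA3 had neither. These classes held 7.13%, 56.8% and 35% of all genes. ESR1, the estrogen receptor α gene (chr6:151977826-152450754), had H3K4me3 ranks of 59.0 and 61.6 with summits 584 and 557 bp downstream of a start, and its nearest Pol II summits were 26026 and 237955 bp away. PGR, the progesterone receptor gene, ranked at 66.2 and 65.9. FOXA1, a pioneer factor of luminal cells, ranked at 57.7 and 59.5, with the nearest Pol II 397361 and 397293 bp away. SPDEF ranked at 60.2 and 61.5, and CDH1, encoding E-cadherin, at 89.9 and 67.0. These 5 lay in the weaker part of both H3K4me3 lists. H3K9Ac was present in both libraries at SPDEF and in neither at the other 4. In the same list XBP1, EPCAM, KRT8 and KRT18 had both targets, with KRT8 and KRT18 sharing 1 region.

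At the other end, the 6 genes with both targets and the best mean of the 4 ranks were MFSD11, HSPA8, PRDX1, EIF4G2, KLF6 and ZNF143. HSPA8, the constitutive HSP70 chaperone (chr11:122928197-122933938), had H3K4me3 ranks of 1.08 and 0.496 and Pol II ranks of 0.410 and 0.413. PRDX1, a peroxide-reducing enzyme, had H3K4me3 ranks of 0.548 and 1.25, and its Pol II summits fell 0 and 2 bp from a start site at ranks of 0.381 and 0.343. VIM, encoding the intermediate filament vimentin that marks mesenchymal cells, had Pol II ranks of 0.260 and 0.304 and H3K4me3 ranks of 4.14 and 6.40.

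Among genes with both, some had strong Pol II and weak H3K4me3. The 6 with the largest gap were H4C3, H2AC14, H3C12, SNAI1, SYP and ANGPTL6, of which 3 are replication-dependent histone genes. H4C3, encoding histone H4, ranked at 0.217 and 0.0783 for Pol II but at 74.4 and 71.2 for H3K4me3. H3C12 ranked at 6.31 and 1.59 against 65.4 and 71.1. SNAI1, a repressor of E-cadherin that drives epithelial-mesenchymal transition, ranked at 2.39 and 6.002 for Pol II and at 66.9 and 65.5 for H3K4me3. In the reverse direction RAPGEF1, GRK2, ACTA2, CELF2 and THRA were named by the rule, with an unnamed gene, ENSG00000285645. CELF2, an RNA-binding protein, ranked at 2.12 and 1.57 for H3K4me3 and at 67.9 and 57.4 for Pol II. THRA, the thyroid hormone receptor α gene, ranked at 17.3 and 27.6 against 88.3 and 77.1. In each of these genes both libraries of a target lay on the same side of both libraries of the other. The genes were chosen for the largest gap in these same libraries, so that agreement follows largely from the choice.

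The 10 genes with the best Pol II rank and no H3K4me3 summit in the window were also edge cases. CCN1 (chr1:86046444-86050272), a matricellular protein induced rapidly by serum and YAP, had Pol II ranks of 0.0844 and 0.0957 with summits 81 and 38 bp downstream of the start, and its nearest H3K4me3 summits were 1348 and 1363 bp downstream. PHLDA1 had Pol II ranks of 0.342 and 0.496 and its nearest H3K4me3 at 1064 and 1079 bp, just beyond the window. CDKN1A, encoding the cell cycle inhibitor p21, ranked at 1.48 and 2.53, with H3K4me3 at 1280 and 1234 bp. EFNB2, encoding the ligand ephrin-B2, ranked at 4.68 and 2.02, with H3K4me3 at 1178 and 1182 bp. BCL6, a transcriptional repressor, ranked at 3.40 and 7.52, with the mark at 1558 and 1542 bp. ARRDC3, an arrestin-domain protein, ranked at 7.82 and 2.92, with the mark farthest of the 10, at 2603 and 2463 bp. The others were GPRC5A, ZCWPW1, PRICKLE4 and ENSG00000276087. All 10 had SAP30 in both parental libraries and Pol II in both SAP30-KO1 libraries. As regions of both replicates these were found at 69.3% and 76.7% of all genes of the class, and SAP30-KO1 H3K4me3 at 31.6%. The nearest parental H3K4me3 summits of the 10 were between 1064 and 2603 bp away. In SAP30-KO1 cells 3 of the 10 (CCN1, PHLDA1 and EFNB2) had an H3K4me3 summit in the window in both libraries. CDKN1A, BCL6, GPRC5A and ZCWPW1 had one in 1 library. Of all 215 genes in the class, 57 (26.5%) shared their Pol II region with the start of another gene that had both targets, nearly the share among genes with both (26.1%).

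Gene families, grouped by symbol, were then counted in the 4 classes. Their counts stand beside the shares over all genes, with no test of any family. Families of basal cell machinery were almost wholly in the class with both targets, which held 56.8% of all genes. All 37 aminoacyl-tRNA synthetases, which load amino acids on tRNA, and all 19 MCM, ORC and GINS proteins of DNA replication were there. So were 82 of 86 cytosolic ribosomal proteins, 75 of 78 mitochondrial ribosomal proteins, 45 of 47 complex I subunits and assembly factors of the respiratory chain, 41 of 44 proteasome subunits and 32 of 34 Sm, LSm and SF3 splicing proteins. None of these 7 families had a member with the mark alone. The translation initiation factors differed, with 48 of 55 in the class with both, 2 (EIF4E3 and EIF3CL) with the mark alone and 5 with neither. RPL10A ranked at 5.37 and 3.62 for H3K4me3 and at 0.550 and 0.596 for Pol II, and RPS12 at 2.65 and 7.10 against 1.25 and 0.841. The few members with Pol II alone were RPL23A, PSMB1, NDUFS6, SNRPD3 and the mitochondrial ribosomal genes MRPL40, MRPL18 and MRPL36. At MRPL36 both H3K4me3 libraries had a summit in the window, at ranks 10.3 and 24.8, that did not form a shared region. At RPL23A, SNRPD3 and NDUFS6 1 of 2 libraries had a summit in the window, at ranks 14.3, 19.1 and 24.8. At PSMB1, MRPL40 and MRPL18 neither did, and the nearest H3K4me3 summit was 1109 to 1408 bp away.

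Several families of secreted ligands, channels and surface or matrix proteins had a larger share of their members in the mark-only class than the 7.13% of all genes. The share was 36.8% for WNT ligands, 35% for semaphorins, 30% for BMP and GDF ligands and 28.0% for potassium channels. Not all families of these kinds did so. It was 7.69% for voltage-gated calcium channels, 7.14% for voltage-gated sodium channels, 5.26% for GABA type A receptor subunits and 4.44% for chemokines, and no type I interferon gene was in the class. By number of genes, the SLC solute carriers (38 of 379, 10.0%) and the numbered ZNF genes (29 of 508, 5.71%) had the most. Both are large families, and the ZNF share lay below the 7.13% of all genes. Of 19 WNT ligands 7 had the mark alone (WNT1, WNT2B, WNT4, WNT5A, WNT5B, WNT10B and WNT11), 3 had both (WNT3, WNT7B and WNT9A) and 9 had neither. WNT4 ranked at 64.3 and 58.3 for H3K4me3 and its nearest Pol II was 90342 and 90332 bp away. WNT5A was less clear, since 1 Pol II library had a summit 254 bp from a start, at rank 98.9. Of 82 potassium channel genes 23 had the mark alone, 7 had both and 52 neither, so that 76.7% of the 30 with the mark lacked Pol II, against 11.1% of all genes with the mark. Of the 23, 22 had no Pol II within 3000 bp, the exception being KCNN2, against 68.4% of all mark-only genes. Among the other mark-only genes, that held for 4 of 7 WNT ligands, 4 of 7 semaphorins and all 6 BMP and GDF ligands. The WNT and semaphorin counts are thus no higher than the share of all mark-only genes. KCNH1 ranked at 46.9 and 50.7 for H3K4me3, with Pol II 124297 and 125245 bp away. KCNN4, a calcium-activated channel, was among the 7 with both.

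Over all genes 7.13% had the mark alone and 56.8% had both. Clustered protocadherins, cell-surface proteins that give neurons their identity, had 11 of 53 members with the mark alone and 2 with both. Their genes lie side by side and are similar in sequence, as are those of the histones, HLA and ZNF families, and how reads that match several copies were treated is not given in the sources used here. Matrix metalloproteinases had 6 of 23 with the mark alone, including MMP15, MMP16 and MMP24 with no Pol II within 3000 bp, and 2 with both, MMP14 and MMP11. The type IV collagens divided by gene pair. COL4A1 and COL4A2, which share a promoter and form the common basement membrane network, had both targets, while the paired COL4A3 and COL4A4 and the paired COL4A5 and COL4A6 had the mark alone. Semaphorins, which guide axons and vessels, had 7 of 20 with the mark alone and 11 with both. FGF ligands had 5 of 22 and 4, and BMP and GDF ligands 6 of 20 and 6. BMP2 ranked at 62.8 and 58.0 for H3K4me3 with Pol II 644598 and 644672 bp away, whereas BMP4 had both, at 2.31 and 8.94 for H3K4me3 and 8.58 and 5.01 for Pol II.

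Transcription factor families differed. Over all genes the shares were 56.8% with both, 7.13% with the mark alone, 1.07% with Pol II alone and 35% with neither. Of 508 numbered ZNF zinc finger genes 407 had both, 29 the mark alone, 4 Pol II alone and 68 neither. HOX genes were mostly without either target, 32 of 39, and only HOXC5 had the mark alone. The other developmental homeobox genes had 10 of 50 with the mark alone, among them NKX2-1, LHX6 and DLX3, 13 with both and 27 with neither. Of 19 SOX genes SOX2, SOX5 and SOX18 had the mark alone, and SOX9, a factor of stem and progenitor cells, had both, with H3K4me3 ranks of 3.45 and 12.3 and Pol II ranks of 1.55 and 4.57. SOX2 had a Pol II summit in 1 of 2 libraries at rank 94.4. The 4 nuclear receptors with the mark alone were ESR1, PGR, RORA and ESRRG, of 46 in all, and 29 had both. Their shares of 8.70% and 63.0% were near those of all genes. Of 29 cyclins 24 had both and CCNA1, CCNI2, CCNP and CCND2 had the mark alone. Replication-dependent histones had 32 of 65 with both, 5 with the mark alone, 2 with Pol II alone and 26 with neither. The histone shares of 49.2% with both, 7.69% with the mark alone and 40% with neither were also near those of all genes.

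**Figure D3:**
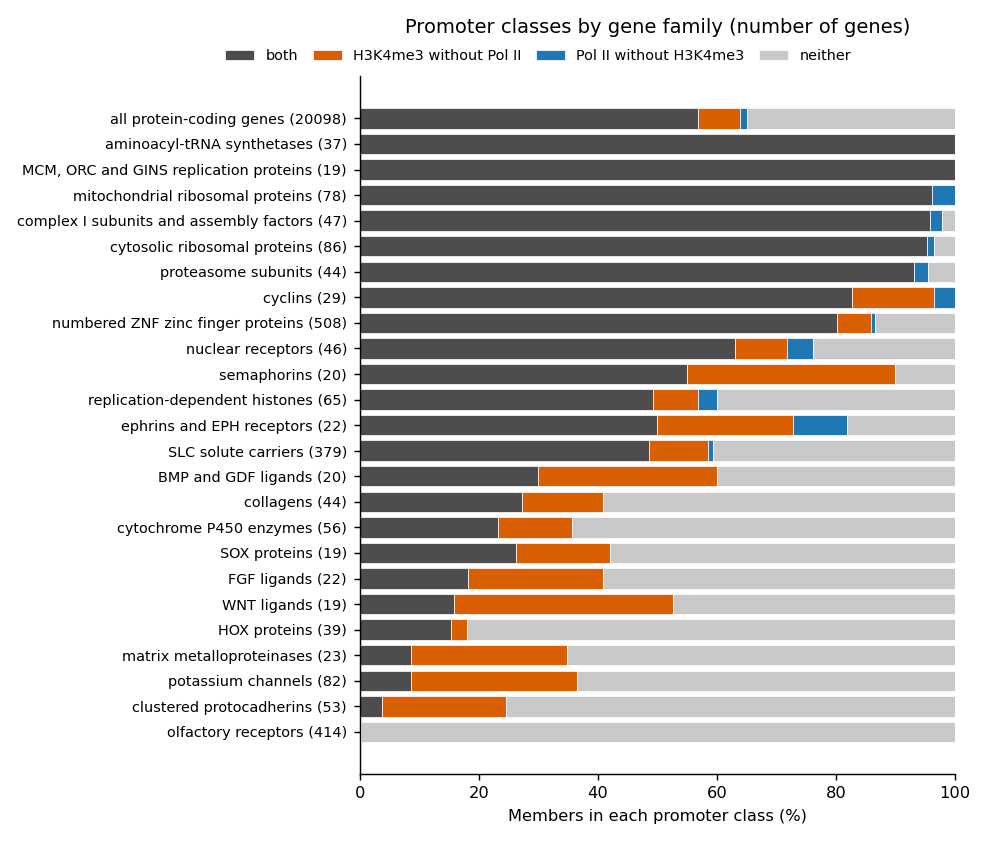
Share of the members of each family (x axis, percent) in the 4 promoter classes, for all 20098 genes and 24 of the 49 families counted, with the number of genes in parentheses. The mark-only segment is absent from the ribosomal, synthetase, replication, proteasome and complex I bars and spans 36.8% of the WNT ligands and 28.0% of the potassium channels.

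In several families almost all members had neither target. These were 413 of 414 olfactory receptors, 93 of 94 keratin-associated proteins, all 45 defensins, all 27 SPRR and LCE proteins of the skin barrier, all 17 type I interferons and 63 of 66 MAGE, GAGE, XAGE, PAGE and SSX cancer-testis proteins, against 35% of all genes. The exception among olfactory receptors was OR52N2, which had the mark alone. The SLC solute carriers were unlike these families. Of 379, 184 had both (48.5%), 38 the mark alone (10.0%) and 154 neither (40.6%), near the 56.8%, 7.13% and 35% of all genes. SLC2A1, the glucose transporter GLUT1, and SLC1A5, a glutamine transporter, were among those with both.

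Libraries that took no part in the classes gave further readouts at the same promoters. H3K9Ac was present at 65.4% and 62.3% of the mark-only genes in its 2 libraries, compared with 99.3% and 99.3% of the genes with both and 64.2% and 70.7% of those with Pol II alone. SAP30 was present at 71.5% and 64.1%, 98.6% and 98.8%, and 67.9% and 75.8%, respectively. The gap between the mark-only class and the class with both was wider for the SIN3 scaffold proteins. SIN3B was at 20.7% and 19.1% of the mark-only genes, at 92.4% and 90.7% of those with both and at 75.3% and 74.4% of those with Pol II alone. SIN3A was at 7.75% and 7.26%, 65.9% and 64.5%, and 49.8% and 46.0%. In each of the 8 libraries the mark-only class lay below the class with both by far more than the replicates differed, by 27.1 to 71.6 percentage points. Genes are not replicates of a class, so no p is given.

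As regions of both replicates, H3K9Ac covered 809 of the 1432 mark-only genes, against 61.7% of all genes, and SAP30 covered 868, against 61.4%. SIN3B covered 198, against 52%, and SIN3A 64, against 31.5%. SAP30 and H3K9Ac occurred together at 642 mark-only genes and both were absent as regions from 397. The weak ranks of the mark move with these shares, and their part in them was compared within deciles only. In the last decile of H3K4me3 rank H3K9Ac was present, on average over its libraries, at 49.6% of the 945 mark-only genes and at 92.2% of the genes with both, and SAP30 at 55.9% and 91.4%. In decile 9 the values were 93.6% and 98.7% for H3K9Ac and 93.8% and 98.4% for SAP30. Deciles 7, 8, 9 and 10 of H3K4me3 rank held 28, 67, 322 and 945 mark-only genes. A mean over these 4 deciles gave each equal weight, so the last, with most of these genes, counted no more than the others. This mean gap between genes with both and mark-only genes was 27.2 percentage points for SIN3B, against 71.6 without regard to rank. These values were 16.7 and 57.7 for SIN3A, 13.4 and 35.5 for H3K9Ac and 12.1 and 30.9 for SAP30. The mean therefore does not give the part of the gap that goes with rank. Restricting the mark-only class to the 979 genes with no Pol II within 3000 bp lowered H3K9Ac to 53.8% and 50.2% and SIN3B to 11.1% and 11.3%.

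**Figure D4:**
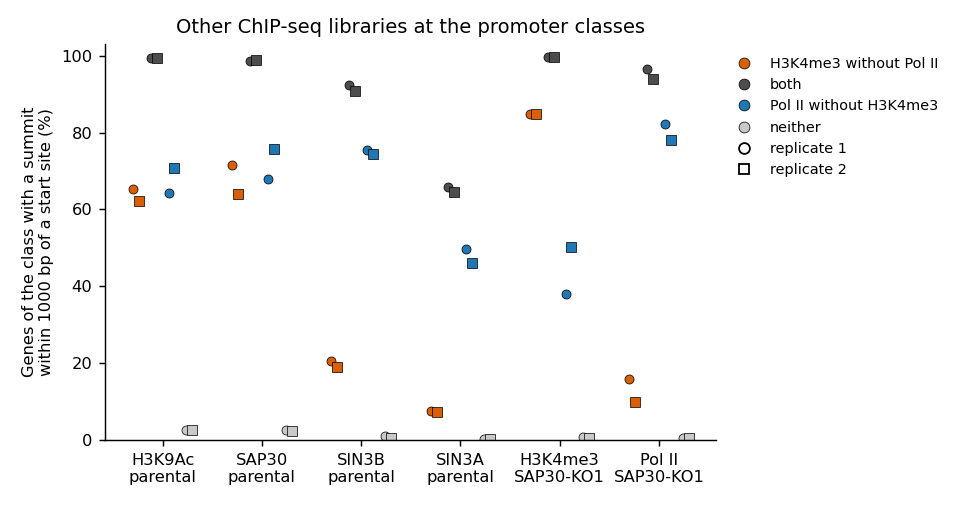
Percent of the genes of each class with a summit within 1000 bp of a start site (y axis) in 12 further libraries of 6 groups (x axis), with a circle for replicate 1 and a square for replicate 2. For SIN3B the mark-only class sits at 20.7% and 19.1% and the class with both at 92.4% and 90.7%, whereas for H3K9Ac and SAP30 the mark-only points sit between 62.3% and 71.5%.

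In SAP30-KO1 cells the 2 classes with H3K4me3 were largely found again, and the class with Pol II alone much less so. H3K4me3 was present at 84.8% and 84.9% of the mark-only genes and Pol II at 15.9% and 10.1%. When classes were formed from the 4 SAP30-KO1 lists in the same way, 1089 of the 1432 mark-only genes (76.0%) stayed in their class, 98 had both targets and 240 had neither. Of the genes with both, 92.2% kept their class and 834 had the mark alone. Of the 215 with Pol II alone, 102 (47.4%) kept their class and 63 had both. Genes whose 2 parental libraries already differed are part of these changes.

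The CpG content of mark-only promoters was close to that of all genes and far above that of genes with neither target. Within 500 bp at each side of the canonical start, the median ratio of observed to expected CpG was 0.728 in the mark-only genes, 0.795 in the genes with both, 0.704 in those with Pol II alone and 0.299 in those with neither, against 0.724 for all genes. A ratio above 0.6, a usual limit for CpG islands, was found in 72.9%, 90.7%, 64.7% and 24.5%, against 65.9% of all genes. The median G+C content was 64.4%, 64.0%, 60.0% and 53.5%, against 61.2%. For the 979 genes without Pol II within 3000 bp the median CpG ratio was 0.741 and G+C was 65.1%. A start site of another gene on the opposite strand within 1000 bp, the arrangement of divergent promoters, was found at 12.6% of the mark-only genes, 31.9% of the genes with both and 34.9% of those with Pol II alone, against 21.2% of all genes. The genes with both also had more annotated start sites, a median of 3 against 2 for each of the single-target classes, so they had more windows in which a summit could fall.

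**Figure D5:**
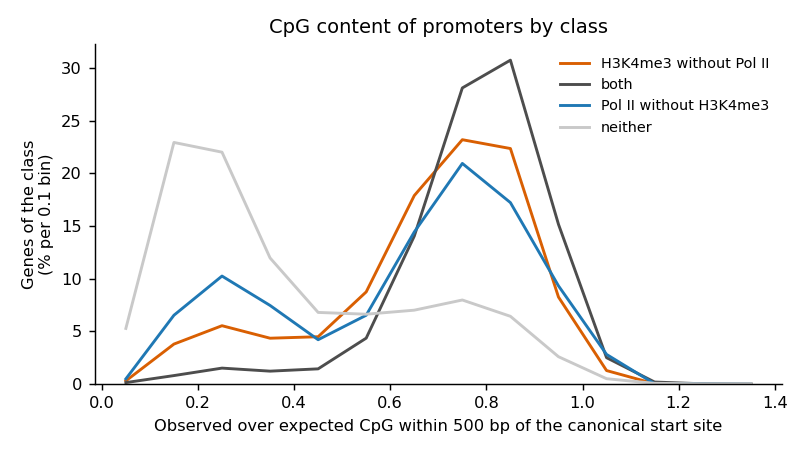
Distribution of the observed over expected CpG ratio (x axis, no unit) within 500 bp of the canonical start site, as percent of the genes of each class per 0.1 bin (y axis). The 3 classes with a target have medians between 0.704 and 0.795, with a smaller group at low ratios in the classes with 1 target, and genes with neither have a median of 0.299.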

How the data were processed

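ChIP-Seq was done in MDA-MB-231 cells with antibodies to H3K4me3 (Cell Signaling Technology) and Pol II (Abcam). Per the labels, the authors used FastQC 0.11.2, Bowtie2 2.3.3.1, Picard and MACS2 2.1.0 on hg19. The deposited lists hold 1-bp summits called per library with a −log10 q-value, lowest values 1.33 to 1.35, so weaker peaks are absent. The control of each call is not given in the sources used here.

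Summits within 1000 bp were merged, and a region needed a summit of both replicates. Start sites were those of GENCODE 44 basic transcripts lifted to GRCh37. For 290 genes without a canonical transcript the outermost start was taken in its place. Library values were compared by two-sided exact permutation tests (scipy 1.17.1). Merging and classes were tested on simulated lists. The members, families and lists were chosen with earlier results of these data known. Named genes were the best-ranked of each class (10, or 6 per list for genes with both), one per region, besides family members and markers. The 12 input and total H3 samples were not analysed here, and the 2 H3K9Ac SAP30-KO1 lists were not used. Labels give both targets replicate numbers 1 and 2, which only name libraries.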

Additional observations from a re-analysis of the deposited data

How the results depend on the processing

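Of 76 alternative values, 57 kept their direction and size class. The gene counts with the mark alone and with both stayed within 1.5 times of 1432 and 11415 under every alternative tried. Without replicate 1 or 2 of both targets, the mark-only count was 1218 or 1380 and shared 1125 or 1315 genes with that reported. The genes themselves changed with the better-ranked 50% of each list, where 265 of 1891 mark-only genes were among those reported. The count with Pol II alone did depend on the setting. It was 450 with summits merged within 500 bp, 692 with a 500 bp window, 130 with a 3000 bp window and 359 with the better-ranked 50% of each list, against 215. With the 3000 bp window 85 of the 215 genes stayed in the class. The difference in promoter share between H3K4me3 and Pol II changed sign, from -0.552 to 0.581 with a 500 bp window and to 2.91 with lists at the length of the shortest. It ranged from -3.57 to 2.46 when 1 library was left out, and was positive without Pol II replicate 1. With the replicate number as a block the difference was -0.552 (exact permutation p = 1.00), and the gene count and distance kept their values. The gap in H3K9Ac between genes with both and mark-only genes, 35.5 percentage points, was 49.6 with regions of either replicate, 47.3 with no Pol II within 3000 bp and 13.4 within deciles of H3K4me3 rank. For SAP30 it was 30.9, with 42.2, 38.3 and 12.1. Values within deciles are means over 4 deciles with equal weight, whatever their number of mark-only genes. Sequencing depth is unknown, and a peak that missed the authors' threshold cannot be told from an absent one.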
